A study of Arabidopsis thaliana with 9 samples.

Results

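Nucleus cluster 4 was 1 of 21 numbered groups of nuclei from the root of Arabidopsis thaliana, and among the genes most specific to it were several for enzymes known to break down dying plant cells. It was taken by its number: the column for cluster 4 in the table of nucleus RNA, with the column of the same number among 20 whole-cell clusters and among 21 clusters of chromatin accessibility. Of 23241 genes in the nucleus table, 34 were at least 4-fold higher in cluster 4 than in every other nucleus cluster and reached an average signal of 1 per 10000, and these are called its leading genes. Among them were CEP1 and MC9, which encode proteases of cell death, and the nuclease gene BFN1. CEP1 and MC9 were chosen as markers of the cluster with earlier results of these data known. Their place among the leading genes is therefore not independent of that choice.

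The series held 9 samples of the accession Col-0, with no transgene or treatment named. Nuclei for 5 RNA and 2 accessibility libraries came from roots of 7-day-old seedlings grown at 25 °C in a 16 h light and 8 h dark cycle, and they were released by chopping, filtered and sorted by flow cytometry. Accessibility was read by ATAC-seq, which maps the places where a transposase can reach the DNA. The 2 bulk RNA libraries came from root tips of 6-day-old seedlings grown at 23 °C in continuous light, 1 ground intact (its title reads whole root) and 1 after the cells had been freed of their walls as protoplasts. The plants and preparation behind the whole-cell table are not given in the labels.

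Every cluster was deposited as 1 average over pooled libraries, so no value has a replicate error, no test between clusters was possible, and each difference describes these averages. Values are average signals per 10000 in a nucleus or cell, and neither the number of nuclei nor their sequencing depth could be read from them. How droplets holding more than 1 nucleus were treated is not stated. A signal above 0 was listed for 19419 genes in cluster 4, leaving 3822 at 0, against 3270 to 8722 genes at 0 in the other clusters.

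Developmental programmed cell death is a normal last step of some plant cells. In roots it is best known in the xylem, whose vessel cells die to become empty tubes, and in the root cap, whose cells are shed or die at the tip. Such cells build up proteases and nucleases before they die, many of them held in the vacuole or the endoplasmic reticulum, and the vacuole's collapse then lets them act on the cell's contents. Autophagy, in which membranes enclose parts of the cell and carry them to the vacuole, is a separate route of breakdown that plant cells also use in hunger and senescence.

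The 3 genes that mark the cluster differed in how sharply they did so. CEP1 (AT5G50260) encodes a papain-type cysteine endopeptidase with an endoplasmic reticulum retention signal. Its signal was 2.57 in cluster 4, while the other 20 clusters ran from 0 through a median of 0.0290 to 0.142 in cluster 7, a ratio of 18.1 to the next cluster. MC9 (AT5G04200), a metacaspase of the type that xylem cells use to clear their contents, was at 3.65 in cluster 4 and at 0 to 0.884 elsewhere, with a median of 0.130. The second-highest value of MC9 was in cluster 21, where the xylem genes had their highest summed signal. ABCB4 (AT2G47000), a transporter that moves the hormone auxin across the plasma membrane of root epidermal cells, was at 9.29 in cluster 4. It was also at 7.84 in cluster 6, 6.07 in cluster 5, 5.28 in cluster 2 and 5.12 in cluster 14, its median over the other clusters was 2.48, and its lowest value was 0.843 in cluster 19. All 3 genes were therefore highest in cluster 4, but ABCB4 was only 1.18 times the next cluster, and without replicates its order relative to cluster 6 cannot be tested. The markers fix no cell type, and none is given to the cluster here.

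The leading genes had a median ratio of 5.42 to the next cluster and a median signal of 3.42 in cluster 4. The ratio of 4 left MC6 just inside at 4.01, with PP2-B5 at 4.05 and AT3G61960 at 4.11, and SGR1 just outside at 3.98, followed by AT2G04050 at 3.97 and AT2G31130 at 3.92. The next cluster was cluster 21 for 11 of the 34 genes, cluster 5 for 7 and cluster 2 for 5. Other clusters had 2 to 186 leading genes, with a median of 22.5, so 34 is neither a high nor a low number.

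Besides CEP1 and MC9, other hydrolase genes were among the leading genes. BFN1 (AT1G11190), a nuclease that cuts both RNA and DNA, was at 13.1 in cluster 4, and elsewhere ran from 0.0288 through a median of 0.151 to 2.48 in cluster 21. PASPA3 (AT4G04460), an aspartic protease gene, was at 6.59 in cluster 4 and at most 0.953 in another, again cluster 21. DSEL (AT4G18550), which encodes a lipase of the class that frees fatty acids from acylglycerols, was at 14.2 in cluster 4 and at 1.59 in cluster 5, the next. All 3 genes were thus 5-fold or more above the next cluster. EXI1 (AT2G14095), a gene known to be induced in dying xylem and root cap cells, was at 3.19 against 0.702 in cluster 21, and the metacaspase gene MC6 (AT1G79320) was at 1.56 against 0.389 in cluster 5.

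Transporters and a transcription factor stood in the same group. UMAMIT8 (AT4G16620), of a family of amino acid exporters, was at 4.76 in cluster 4, with a median of 0.0494 elsewhere and a highest other value of 0.286 in cluster 21. SWEET2 (AT3G14770), which moves sugars across the vacuole membrane, was at 4.24 in cluster 4 and at 0.518 in cluster 6. NAC074 (AT4G28530), a NAC family transcription factor, was at 7.72 in cluster 4, with a median of 0.108 elsewhere and 0.932 in cluster 5. As for every leading gene, the 4-fold rule itself required their values to be lower in all 20 other clusters. AOX1A (AT3G22370), the alternative oxidase of mitochondria, was at 2.85 against 0.682 in cluster 21, and the heme oxygenase gene AT2G26670 was at 7.81 against 1.75 in cluster 5.

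Of the 34 leading genes, many had no name beyond their locus in the gene table. The largest ratio of all, 22.0, belonged to AT3G54520, at 4.89 in cluster 4 and 0.222 in cluster 7. Its direct neighbour AT3G54530, with no protein-coding gene between them, was at 5.66 against 0.665 in cluster 21. AT3G48346 was at 1.26 against 0.0626 in cluster 6, and AT5G46090, at 1.25, had a ratio of 11.5. The ratio was 9.78 for AT5G43450, 9.23 for AT2G15830, 7.71 for AT4G34320 and 7.15 for AT5G03500. It was 6.78 for AT3G06210, 5.63 for AT5G18980 with a signal of 7.90, 5.55 for AT2G31560 and 5.04 for AT2G38790. AT4G38060, with the synonym CCI2 for a Clavata complex interactor, had the highest signal of any leading gene, 14.5, and a ratio of 5.21. Of the 34 genes, 9 overlap another gene in the gene table, among them AT3G54520, AT5G46090, AT4G34320, PASPA3 (AT4G04460), AT3G06210, AT2G31560 and AT2G38790, and whether the counting used strand is not stated, so reads of those could be shared.

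**Figure D1:**
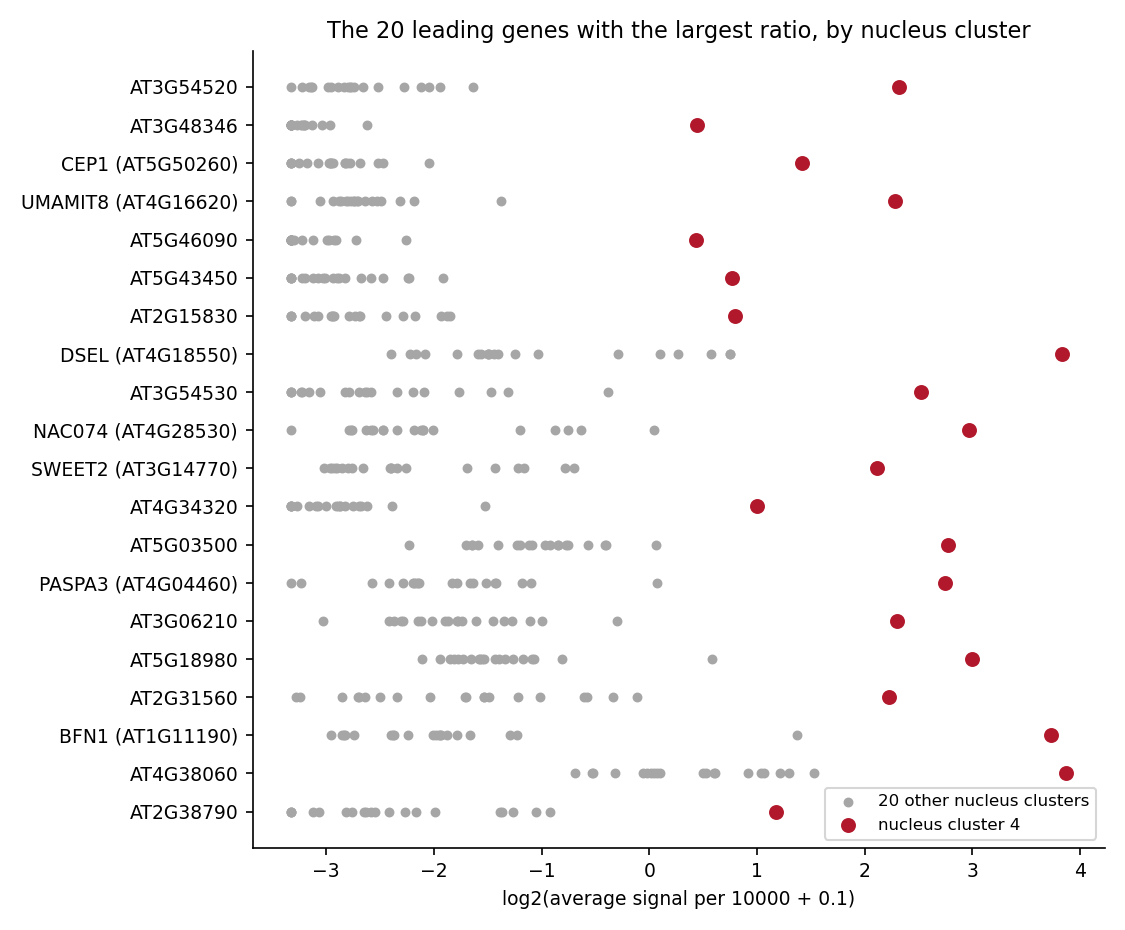
Average signal of the 20 leading genes ranked highest by their ratio to the next cluster, as log2(average signal per 10000 + 0.1), with 1 point per nucleus cluster. Cluster 4 (large points) lies apart from the 20 other clusters (small points) on every row, from AT3G54520 with a ratio of 22.0 down to AT2G38790 with 5.04.

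Relative to the mean of the other nucleus clusters, on a log2(signal + 0.1) scale, 1002 of 13016 genes that reached 0.5 per 10000 in some cluster were at least 2-fold higher in cluster 4, which is 7.7%. A further 3559, or 27.3%, were at least 2-fold lower, and 699, or 5.37%, had their highest value there. The surplus of lower genes came with the choice of reference: the mean is raised by whichever cluster uses a gene most, and against the median of the other clusters 1708 genes were higher and 1387 lower. The median log2 ratio over all these genes was -0.48 against the mean and -0.11 against the median. Counts of lower genes in the lists are therefore given under both, and those of families gathered later under the mean alone.

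Most listed genes of developmental cell death were higher in cluster 4. The list holds hydrolases and 2 other genes, DMP4 and EXI1, and it includes the markers CEP1 and MC9, so it is not independent of how the cluster was named. All 15 measured genes of the 16 listed passed the floor, and 12 were 2-fold higher in cluster 4, 10 with their highest value there, against 7.7% and 5.37% of all genes. CEP1 reached the floor through cluster 4 alone, which fixed its direction. Among the 13 genes left without CEP1 and MC9, 10 were 2-fold higher and 8 were highest in cluster 4, against 6.99% and 4.62% of the 12913 genes that reached the floor in another cluster. Of the 11 hydrolases among those 13, 8 were 2-fold higher. The median log2 ratio was 3.83 for the 15 genes and 2.97 for the 13. Its summed signal was 99.5 in cluster 4, 69.4 in cluster 21 and at a median of 5.25 over the 20 other clusters. The list was thus high in 2 clusters, and in cluster 21 the count of 2-fold higher genes was 9.

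The 3 KDEL-tailed proteases differed in level and in place. CEP2 (AT3G48340) was at 30.3 in cluster 4, and its other values ran from 0.382 through a median of 1.04 to 9.06 in cluster 3. CEP3 (AT3G48350) was at 1.34 in cluster 4 and at most 0.588 in another, cluster 18. CEP1, CEP2 and CEP3 were all highest in cluster 4, and CEP1 was closest to absent elsewhere. SCPL48 (AT3G45010), a serine carboxypeptidase-like gene, was at 25.4, or 3.48 times its value in cluster 21, and DMP4 (AT4G18425), a membrane protein gene used as a marker of cell death, was at 3.21 against 1.23 in cluster 21. The vacuolar processing enzymes, proteases that cut and activate other vacuolar proteins, were mixed: gammaVPE (AT4G32940) was highest in cluster 4 at 5.56, alphaVPE (AT2G25940) was at 1.19 there and 1.55 in cluster 14, and betaVPE (AT1G62710) was at 0.0954 there and 1.12 in cluster 19.

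A further 2 hydrolases of the list, the xylem cysteine proteases, were 2-fold below the mean of the other clusters, which cluster 21 raised. Against the median of the others, 0 genes of the list were 2-fold lower. XCP1 (AT4G35350) was at 0.267 in cluster 4 and 21.2 in cluster 21, and XCP2 (AT1G20850) was at 0.396 and 27.8. The ribonuclease gene RNS3 (AT1G26820) was shared, at 2.61 in cluster 4, 3.35 in cluster 21 and 0.508 or less in the rest. When cluster 21 was left out, 12 genes joined the 34 leading genes, among them RNS3, DMP4, SCPL48, SGR1 and the arabinosidase gene ASD1 (AT3G10740), which was at 11.2 in cluster 4 and 4.84 in cluster 21. Of these 12 genes, RNS3 and AT5G38610 were higher in cluster 21 than in cluster 4.

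None of the 9 xylem genes past the floor, which include XCP1 and XCP2, was 2-fold above the mean of the other clusters in cluster 4, and XCP2 was the 1 gene 2-fold above their median. The master regulators VND6 (AT5G62380), MYB46 (AT5G12870) and MYB83 (AT3G08500) were at 0 in cluster 4, and VND7 (AT1G71930) was at 0.0165. The whole xylem list summed to 0.871 in cluster 4 and 87.7 in cluster 21, and to a median of 0.486 over the other clusters.

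**Figure D2:**
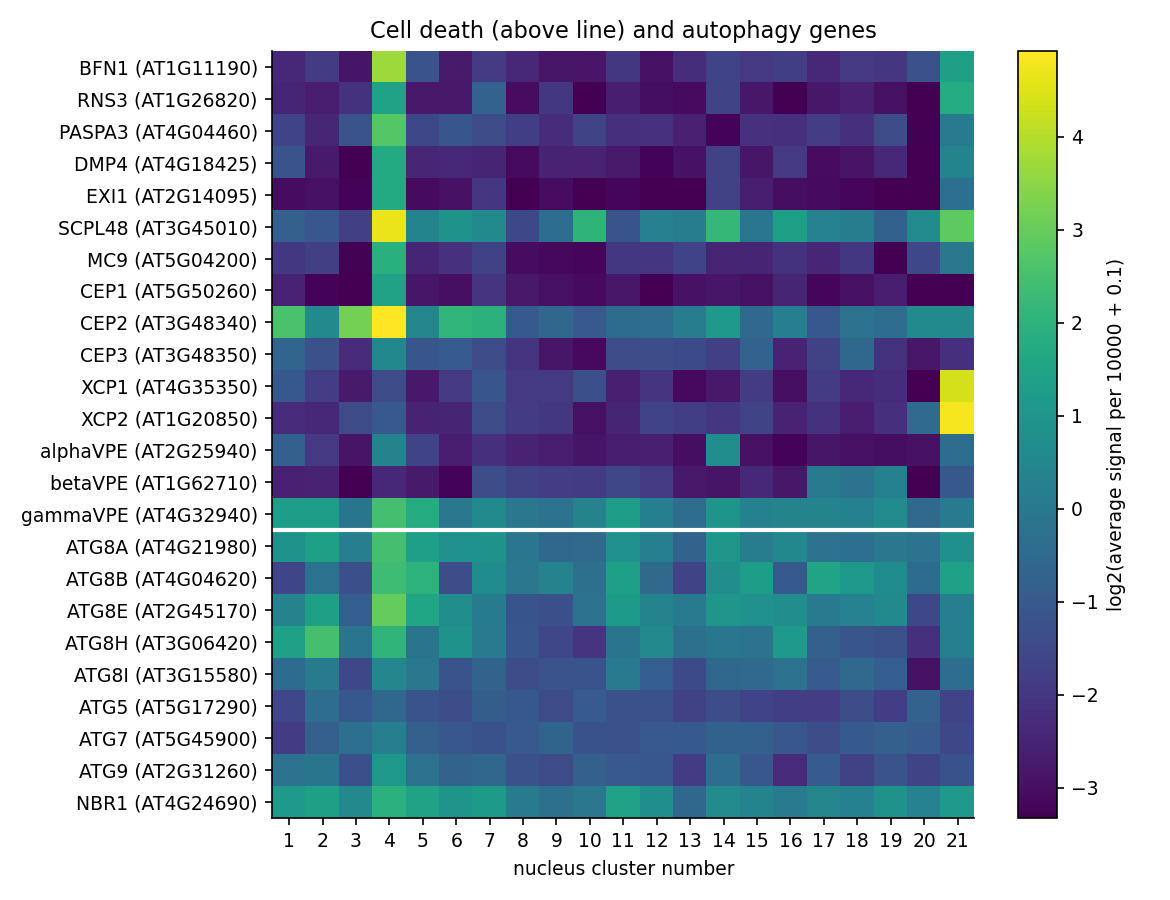
Signal of 15 genes of the developmental cell death list (above the white line) and 9 autophagy genes (below it) in each of 21 nucleus clusters, as log2(average signal per 10000 + 0.1) on a colour scale. Column 4 is brightest for 10 of the cell death genes and 7 of the autophagy genes, and XCP1 and XCP2 are bright in column 21.

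Metacaspases as a family were mixed, and in a list of 6 nucleases most genes past the floor were higher. These lists share MC9, BFN1 and RNS3 with the cell death list. Of 9 metacaspase genes 7 passed the floor, and 3 were 2-fold higher in cluster 4, against 7.7% of all genes. Relative to the mean 1 was lower, and relative to the median 0. Of those 3, MC9 is a marker of the cluster and MC6 reached the floor through cluster 4 alone, so their direction was fixed by the choice of genes, and 1 of the other 5 was 2-fold higher. MC9 and MC6 were highest in cluster 4, and MC5 (AT1G79330) was at 0.586, next to 0.773 in cluster 2. MC4 (AT1G79340) was at 2.37 in cluster 4 and 4.72 in cluster 1, and MC3 (AT5G64240) at 0.158 in cluster 4 and 29.0 in cluster 19. The metacaspase genes MC4 to MC7 lie next to one another and resemble one another, so their reads could be shared. Of 4 nuclease genes past the floor, BFN1, RNS3 and RNS1 (AT2G02990) were 2-fold higher, again against 7.7% of all genes, and 0 were 2-fold lower. RNS1, at 0.660 in cluster 4, was at 0.694 in cluster 6.

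The autophagy list was higher as a group, with smaller ratios. Of its 9 genes, 8 were 2-fold higher in cluster 4 and 7 had their highest value there, against 7.7% and 5.37% of all genes. The median log2 ratio was 1.82, against -0.48 over all genes. The list summed to 31.2 in cluster 4, to 16.6 in cluster 2 and to a median of 7.65 elsewhere, and no other cluster had more than 1 of the 9 genes 2-fold higher. ATG8 proteins are small ubiquitin-like tags fixed to the growing membrane. ATG8E (AT2G45170) was at 7.79 in cluster 4, with other clusters from 0.249 through a median of 1.18 to 2.86 in cluster 5. ATG8A (AT4G21980) was at 5.51 against 2.47 in cluster 2. ATG8B (AT4G04620) was at 5.08 against 3.90 in cluster 5. These 3 were highest in cluster 4, while ATG8H (AT3G06420) was at 4.15 there and 5.49 in cluster 2. ATG9 (AT2G31260), a membrane protein that supplies the growing sac, was at 2.02 against 0.821 in cluster 2, and ATG7 (AT5G45900), the enzyme that activates ATG8, was at 1.05 against 0.705 in cluster 3. NBR1 (AT4G24690), a receptor that brings cargo to ATG8, was at 3.72 against 2.61 in cluster 5. ATG8I (AT3G15580) was at 1.30 against 0.959 in cluster 2. ATG5 (AT5G17290) was the 1 gene under 2-fold, at 0.571 in cluster 4 and 0.677 in cluster 2.

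Among senescence genes, 2 of the 4 that passed the floor were 2-fold higher, against 7.7% of all genes. Cluster 6 also had 2 of the 4 2-fold higher, and whole-cell cluster 4 had 0 of 3. SGR1 (AT4G22920), which takes the magnesium out of chlorophyll when leaves yellow, was at 4.24 in cluster 4, with a median of 0.183 elsewhere and 1.06 in cluster 21. ORE1 (AT5G39610), a NAC factor of leaf senescence, was at 1.31 in cluster 4 and 1.80 in cluster 5. Of the 4 wound and stress genes that passed the floor, only DREB2A (AT5G05410), a drought and heat regulator, was 2-fold higher, at 0.997 against 0.866 in cluster 2. The share of all genes was again 7.7%. Jasmonate repressor JAZ8 (AT1G30135) was at 0.0203 and the wound regulator ERF115 (AT5G07310) at 0.

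Root cap genes divided by kind. NAC087 (AT5G18270) and NAC046 (AT3G04060) are NAC factors known to promote cell death in the root cap. NAC087 was highest in cluster 4 at 5.88, with a median of 0.344 elsewhere and 2.79 in cluster 2, and NAC046 was at 1.11 there and 1.94 in cluster 2. The factors that set root cap identity and maturation were near or at 0. SMB (AT1G79580) and FEZ (AT1G26870) were listed at 0 in cluster 4 and were highest in cluster 7, at 0.885 and 0.121. BRN1 (AT1G33280) was at 0.0640 and BRN2 (AT4G10350) at 0.0157 in cluster 4, and the root cap polygalacturonase gene RCPG (AT1G65570) was listed at 0 in all 21 nucleus clusters. Of 10 root cap genes 6 passed the floor and 2 were 2-fold higher, against 7.7% of all genes. Relative to the mean 1 was lower, and relative to the median 0. The summed signal of the list was highest in cluster 4, at 7.11, most of it from NAC087.

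Root hair genes were low in cluster 4 beside the clusters that led them, yet above most clusters. The list summed to 322 in cluster 1, 130 in cluster 2, 36.9 in cluster 3 and 22.7 in cluster 4, against a median of 4.51 over the clusters other than cluster 4. Relative to the mean, 1 of 10 root hair genes was 2-fold higher and 1 lower, against 7.7% and 27.3% of all genes. Relative to the median 8 of the 10 were higher and 0 lower, against 1708 and 1387 of all 13016 genes. RSL2 (AT4G33880), a regulator of hair growth, was at 1.02 in cluster 4 and 3.30 in cluster 2. The wall enzyme gene XTH14 (AT4G25820) was at 9.25 in cluster 4 and 74.4 in cluster 1. Of the 6 non-hair and patterning genes past the floor, 0 were 2-fold higher under either reference. Of them, 2 were 2-fold lower relative to the mean and 0 relative to the median. GL2 (AT1G79840), which blocks hair fate, was at 0.0538 in cluster 4 and 1.51 in cluster 6. Whether RNA free in the droplets or mixed nuclei added to the low root hair values was not tested.

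Most listed genes of inner tissues and dividing cells were below the mean of the other clusters, but within 2-fold of their median. All 12 endodermis genes were 2-fold below that mean and 0 below the median, against 27.3% of all genes below the mean. Of 9 xylem genes 7 and of 5 phloem genes 4 were below the mean, and 0 of each below the median. For the 5 stele genes the counts were 4 and 2, and for the 8 cell cycle genes 6 and 1. Of 4 pericycle genes 3 were below the mean and 0 below the median, and of 3 cortex genes 1 passed the floor, with no 2-fold difference. Counts like these were not particular to cluster 4. In clusters 2 and 5, too, all 12 endodermis genes and 7 of 9 xylem genes were 2-fold below the mean of the others. The 5 genes with the lowest ratio to the mean led in cluster 16 or cluster 10. CASP1 (AT2G36100), which builds the Casparian strip of the endodermis, was at 0.248 in cluster 4 and 93.3 in cluster 16, and PER64 (AT5G42180), a peroxidase of the same structure, was at 0.124 and 57.0. The others were CDC20.2 (AT4G33260), an activator of the anaphase-promoting complex, at 0.0439 and 31.4 in cluster 10, AT1G43020 at 0.0450 and 35.5 in cluster 16, and AT5G10278 at 0.0558 and 31.9 in cluster 16.

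Most auxin transport genes were lower relative to the mean of the other clusters, while ABCB4 and ABCB11 were higher. Of 14 measured genes, 11 were 2-fold below that mean, against 27.3% of all genes, and 7 were 2-fold below the median, with the other 5 besides ABCB4 and ABCB11 within 2-fold of it. ABCB21 (AT3G62150) was within 2-fold of both. For the 14 genes the median log2 ratio to the mean was -2.0. Such a count was not particular to cluster 4. In clusters 1, 2, 5 and 11, too, 11 of the 14 genes were 2-fold below the mean of the others, and in cluster 16 it was 12. In whole-cell cluster 4, 0 of the 10 genes past the floor there were 2-fold lower, with a median log2 ratio of 0.03. The efflux carrier gene PIN3 (AT1G70940) was at 0.0239 in cluster 4, next to 0.0240 in cluster 6, with a median of 0.630 elsewhere and 5.68 in cluster 20. PIN4 (AT2G01420), at 0.0172, was at its lowest of 21. The influx carrier gene AUX1 (AT2G38120) was at 0.212 in cluster 4, with a median of 1.31 elsewhere. The transporter gene ABCB19 (AT3G28860) was at 0.197 with a median of 1.60 elsewhere. ABCB4 and ABCB11 (AT1G02520) alone among the 14 were 2-fold higher, but ABCB4 is a marker of the cluster, which fixed its direction. Counted without the markers, 1 of 13 was 2-fold higher, against 6.97% of all genes that reached the floor in another cluster. ABCB11 was at 2.66 in cluster 4, with a median of 0.151 elsewhere and 0.774 in cluster 2. ABCB1 (AT2G36910), another member of that family, was at 0.321 with a median of 1.44 elsewhere.

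**Figure D3:**
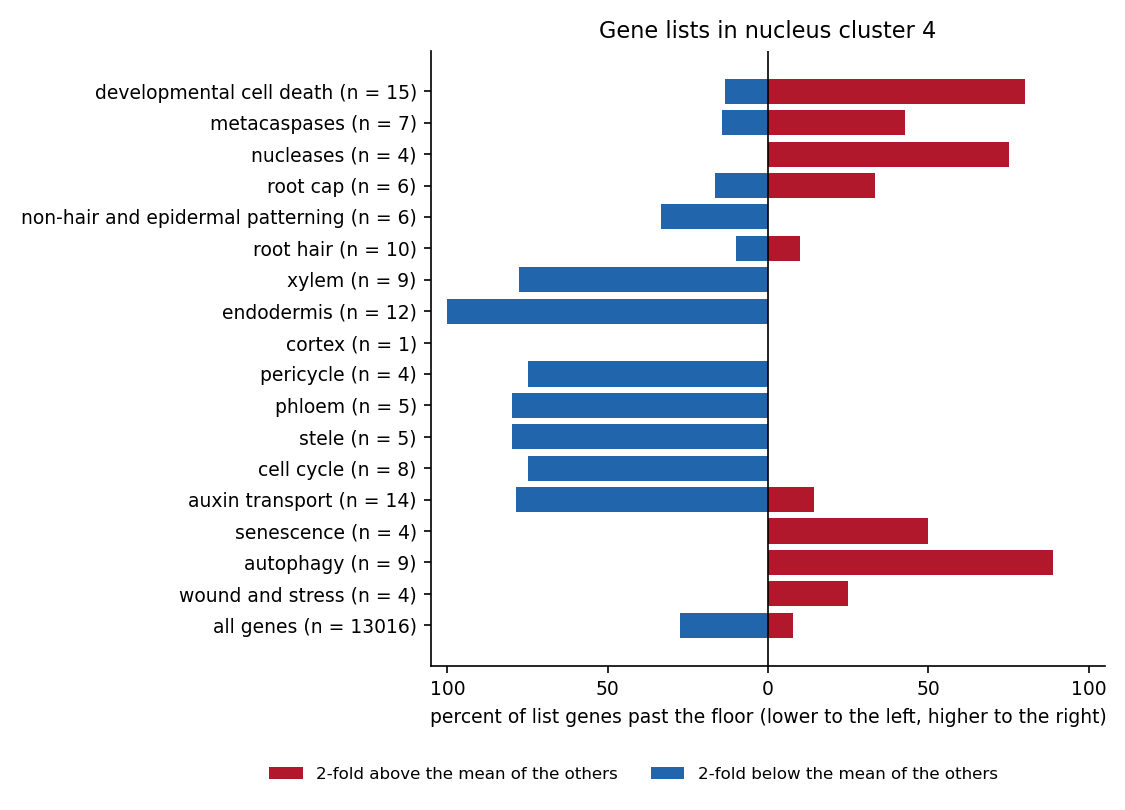
Percent of the genes of each list past the floor of 0.5 per 10000 that were 2-fold above (right) or 2-fold below (left) the mean of the other nucleus clusters in cluster 4, with all 13016 genes in the lowest row. Developmental cell death genes (12 of 15, CEP1 and MC9 included) and autophagy genes (8 of 9) extend to the right, and auxin transport and inner tissue lists to the left, where against the median of the other clusters the endodermis, xylem and phloem counts were 0.

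Across the 13016 genes, with each gene centred over the clusters, cluster 4 was most like cluster 5 (Spearman rho 0.68), then cluster 2 (0.59) and cluster 11 (0.46). It was most unlike cluster 8 (-0.55), cluster 10 (-0.51) and cluster 9 (-0.51). These are correlations over genes, which are not independent, and they are given as a description.

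The agreement of the whole-cell cluster of the same number was weak. For nucleus cluster 4 the best match among the whole-cell clusters was cluster 5 (rho 0.54), followed by cluster 2 (0.48) and cluster 11 (0.43), and whole-cell cluster 4 came 4th with 0.33. Taken the other way, nucleus cluster 4 was the best match of whole-cell cluster 4, ahead of nucleus cluster 2 (0.25) and nucleus cluster 5 (0.24). The same number gave 0.42 to 0.73 for the 19 other clusters present in both tables, so cluster 4 had the lowest value, and the same number was the best match for 17 nucleus clusters of 20.

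Most leading genes were low in whole cells. Of the 34, 20 stayed under 0.5 per 10000 in every whole-cell cluster, and their median signal was 3.42 in nucleus cluster 4 and 0.172 in whole-cell cluster 4. CEP1, at 2.57 in nuclei, was at 0 in whole-cell cluster 4 and at 0.00119 or less in every other whole-cell cluster. NAC074 was at 0.0115 in whole-cell cluster 4 and UMAMIT8 at 0.0218. In these tables such genes were thus low in every whole-cell cluster rather than high under another number.

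Of the 14 leading genes at 0.5 or more in some whole-cell cluster, 6 had their highest value in whole-cell cluster 4 and 8 were 2-fold above the mean of the others there. Over all 7302 genes past that floor in whole cells these shares were 2.19% and 4.12%. EXI1 and CSLB01 reached the floor in whole cells through cluster 4 alone. Without them 4 of 12 were highest there and 6 were 2-fold higher, against 1.69% and 3.69% of genes that reached the floor in another whole-cell cluster. MC9 was at 6.71 in whole-cell cluster 4, with other whole-cell clusters from 0.0113 through a median of 0.0317 to 1.64 in cluster 21. BFN1 was at 2.21 against 1.12 in cluster 21, EXI1 at 0.864 against 0.0312 in cluster 11, and AT2G15830 at 13.3 against 6.05 in cluster 21. ABCB4 was at 0.641 in whole-cell cluster 4 and 0.930 in cluster 3. MC9, BFN1 and EXI1 were hence highest in cluster 4 in both tables, while CEP1 and ABCB4 were not.

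The cell death list was higher in both tables. In whole-cell cluster 4, 8 of its 11 genes that passed the floor there were 2-fold higher, against 4.12% of all genes. Without MC9 and EXI1 it was 6 of 9, against 3.69% of genes that reached the floor in another whole-cell cluster. In whole-cell cluster 21, 9 of the 11 were 2-fold higher. CEP2 (AT3G48340) was at 29.8 in whole-cell cluster 4, close to its 30.3 in nuclei. The list summed to 50.7 in whole-cell cluster 4 and 71.8 in whole-cell cluster 21. For autophagy, 8 of 9 genes were 2-fold higher in nuclei. In whole-cell cluster 4 it was 0 of the 7 that passed the floor there, where 4.12% of all genes were. Their median log2 ratio was 0.56, against -0.28 over all genes in whole cells. The autophagy list summed to 45.6 in whole-cell cluster 4 and to 72.5 in whole-cell cluster 5. Root cap genes stood the other way, with 5 of 7 past the floor 2-fold higher in whole-cell cluster 4, against 2 of 6 in nuclei. RCPG and CEL3 passed there through whole-cell cluster 4 alone, and without them 3 of 5 were higher. The shares of all genes were again 4.12%, and 3.69% with the floor reached in another whole-cell cluster.

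Whole-cell cluster 4 had 15 leading genes of its own by the same rule, of which only MC9 was a leading gene in nuclei. BGLU35 (AT1G51470) and BGLU34 (AT1G47600), myrosinase genes of the root that split glucosinolates, were at 17.7 and 21.2 in whole-cell cluster 4 and at most 0.194 and 0.341 in another. In nuclei they were at 0.865 and 0.894 in cluster 4 and highest in cluster 7, at 2.50 and 3.01. RCPG was at 2.51 in whole-cell cluster 4 against 0.266 in cluster 11, though listed at 0 in every nucleus cluster. Of the 15 genes, 6 were highest in nucleus cluster 7 and 4 in nucleus cluster 4. Those 4 were MC9, MLP-300B (AT3G16440), AT1G55240 and ASPGB1 (AT3G16150). AT1G55240 was at 3.30 in whole-cell cluster 4 and 4.52 in nucleus cluster 4. The columns numbered 4 thus had cell death genes in common and differed in most of what led each. The cell death list was also high in both columns numbered 21.

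**Figure D4:**
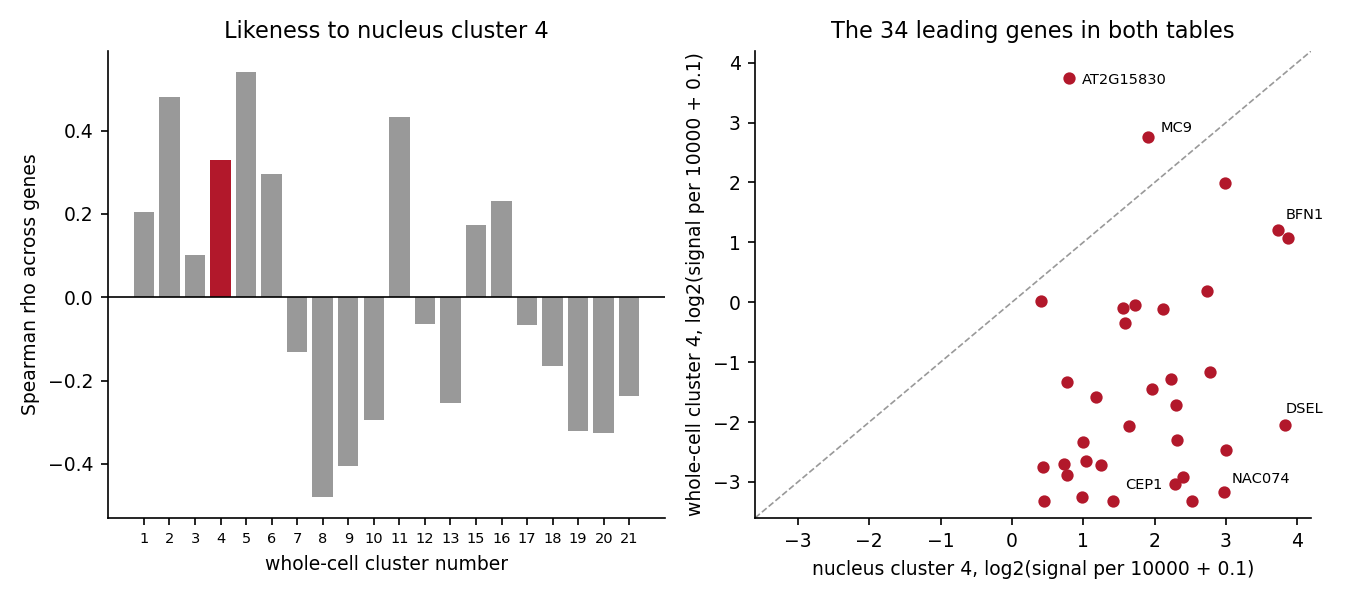
Left, Spearman rho across 13016 genes between nucleus cluster 4 and each whole-cell cluster, with cluster 4 at 0.33 and cluster 5 highest at 0.54. Right, the 34 leading genes by log2(average signal per 10000 + 0.1) in nucleus cluster 4 and whole-cell cluster 4, with a dashed line of equal signal, where MC9 and AT2G15830 lie above the line and CEP1 at the lower edge.

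In the bulk libraries, fewer cells of a type and less RNA per cell cannot be told apart, and each library was 1 sample without a replicate. Of the 34 leading genes 27 reached 5 FPKM (fragments normalised to transcript length and library size) in either library. On the log2(FPKM + 1) scale, 11 were 2-fold higher in protoplasts and 5 lower, against 11.4% and 30.3% of all 15110 genes past the same floor, with a median log2 ratio of 0.77 against -0.46 for all. MC9 had 36.6 FPKM in the intact library and 186 in the protoplast library, AOX1A at 37.4 and 154, and BFN1 at 9.50 and 29.7. NAC074 went the other way, with 7.35 before and 0.0571 after wall removal, and CEP1 was low in both, at 0.593 and 0.197. Per the protocol these libraries came from root tips, and how many cells of the kind in cluster 4 a tip holds is unknown.

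Chromatin accessibility was highest in accessibility cluster 4 at most leading genes. Regions were joined to a gene when they overlapped it or the 1000 bp on either side, and columns were scaled to the same total. All 34 genes had a region, and in 46 of 57 gene and region pairs, or 80.7%, cluster 4 was the highest of the 21 clusters, against 23.4% of the pairs of all genes past the RNA floor. At least 1 such region was found for 32 of 34 leading genes, against 34.3% of all genes. The median log2 ratio to the mean of the other clusters was 1.63 at the leading genes and 0.14 over all pairs. With values as deposited, before scaling, the shares were 77.2% and 13.0%. How accessibility nuclei were given their cluster numbers is not stated in the labels, so the RNA may have entered that step and the tables cannot be treated as independent.

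Cluster 4 was also unusual over the whole accessibility table, which bears on these shares. It had the lowest deposited total, 10532 against 11062 to 14125, and after scaling it was the highest cluster at 3240 of 20803 regions, or 15.6%, more than any other. As deposited it was highest at 1767, second to another cluster with 2151. It was low at narrow regions: in the narrowest 20% (689 bp or less) its median log2 ratio was -0.98 and in the widest 20% (4277 bp or more) 0.27. This gap of 1.25 compares with -0.19 to 0.83 in the other clusters. Regions at leading genes were wider than the rest, with a median of 2921 bp against 1714 bp. Within the widest 20%, 17 of 19 regions at leading genes were highest in cluster 4, against 28.6% of all regions of that width.

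Named genes showed where the signal lay, in coordinates of the deposited table on the TAIR10 build. At MC9 the region chr5:1153222-1155687 was at 1.94 in cluster 4 and 1.93 in cluster 14, with a median of 0.290 over the other clusters. At CEP1 chr5:20450684-20455733 was at 1.29 against 0.760 in cluster 2, but chr5:20457673-20463671, joined to it through its flank, was at 0.242, rank 20 of 21. At ABCB4 the single region chr2:19306342-19321599 was at 0.665 against 0.653 in cluster 6. After scaling, cluster 4 was thus highest at a region of each marker, by little at MC9 and ABCB4. The deposited totals were 10532 in cluster 4, 12638 in cluster 14 and 12263 in cluster 6. As deposited, cluster 4 therefore lay below cluster 14 at MC9 and below cluster 6 at ABCB4. At NAC074, 3 regions were highest in cluster 4, with log2 ratios of 2.0, 3.64 and 3.19. At UMAMIT8 2 of 3 regions were highest there. AT3G54520 and its neighbour AT3G54530 share chr3:20185099-20185739, at 1.49 in cluster 4 and 1.56 in cluster 5, and no region of either was highest in cluster 4.

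Among all regions, 460 were at least 1.5-fold more accessible in cluster 4 than in every other cluster and at or above that column's median of 0.433. The widest gap, 5.59-fold, was at chr3:1097723-1099695, which overlaps AT3G04180 and AT3G04181 and was at 3.85 in cluster 4, with other clusters from 0 through a median of 0.265 to 0.688. The next, at 5.17-fold, was chr4:17459731-17461475, over the patatin-like phospholipase genes PLP4 (AT4G37050) and PLP5 (AT4G37060), at 4.08 against 0.790 in cluster 5. Next came chr4:336008-337795, 4.05-fold, which overlaps AT4G00780 and AT4G00800. The region chr1:3751786-3753730 overlaps BFN1 and its neighbour AT1G11200 and was 3.42-fold above the next cluster, and chr3:1882290-1884106, over AT3G06210 and AT3G06220, was 3.31-fold above it. The region chr2:13435776-13438974, over AT2G31560 and AT2G31570, was 2.93-fold above the next, chr3:16462465-16463579, which overlaps no gene of the gene table, 3.33-fold, and chr3:1550363-1551106, over AT3G05400, 2.91-fold. Of the 8 regions with the widest gap, 3 thus lay at leading genes. Of the 460 regions, 392 were joined to a gene past the RNA floor, and those genes numbered 623. Among the 623, 241, or 38.7%, were 2-fold higher in RNA and 48 were 2-fold lower. Over all genes past that floor the shares were 7.7% and 27.3%.

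Accessibility followed the RNA ratio across its range. Of the pairs of genes with an RNA log2 ratio under -2, 8.63% were highest in accessibility cluster 4, rising step by step to 19.4% from -1 to 0, 33.4% from 0 to 1, 59.1% from 1 to 2 and 85.0% at 3 or more, where the pairs came from 71 genes. The cell death list had 17 of 25 pairs highest in cluster 4, or 68.0%, against 23.4% of all pairs, and 56.0% with values as deposited, against 13.0%. For SCPL48 the region chr3:16464307-16470531 was at 1.59 against 0.634 in cluster 14. XCP1, low in the RNA, was at 0.327 in its region, rank 18 of 21. RNS3 was at 0.673, next to 0.681 in cluster 20. The autophagy list had 10 of 15 pairs highest in cluster 4, or 66.7%, and 33.3% with values as deposited. At least 1 region highest in cluster 4 was found for 8 of the 9 autophagy genes and 11 of the 15 cell death genes, against 34.3% of all genes. The median log2 ratio of the pairs was 0.76 for autophagy and 1.53 for cell death, and the difference between the lists was not tested.

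**Figure D5:**
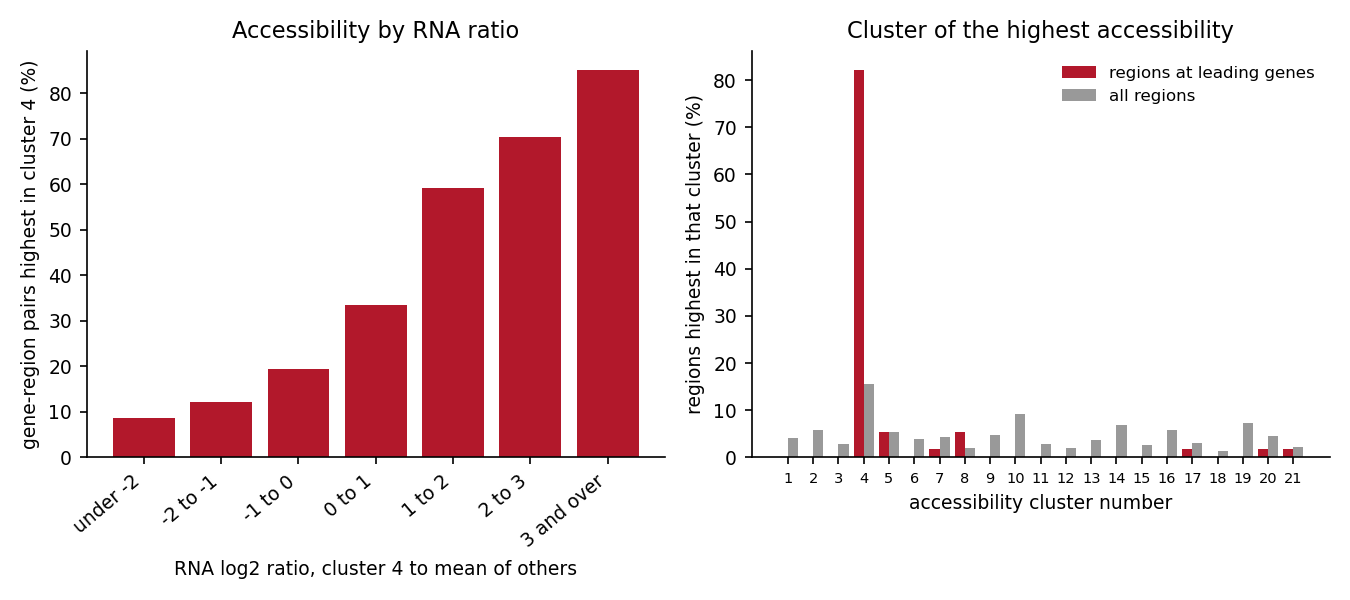
Left, percent of gene and region pairs whose accessibility was highest in cluster 4, by the RNA log2 ratio of the gene in nucleus cluster 4, from 8.63% under -2 to 85.0% at 3 and over. Right, percent of the 56 regions at leading genes (dark bars) and of all 20803 regions (grey bars) that were highest in each accessibility cluster, with cluster 4 at 82.1% and 15.6%.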

How the data were processed

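For nuclei and for whole cells the authors deposited a signal averaged over all members of each cluster, gene by gene, and for accessibility a signal averaged in the same way, region by region. Values of the bulk libraries are FPKM, as deposited. The submitters' processing notes list, with no role given, Seurat 3.1.5, Signac 0.2.5, Cell Ranger ATAC 1.2, Cell Ranger 3.1.0, SAMtools 0.1.19, Bowtie2 2.1.0, TopHat2 2.0.11 and FastQC, and the build TAIR10. Depth is unknown for every table, so no interval is given.

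Columns were scaled to 10000. Leading genes reached 1 per 10000 and a plain ratio of 4 to every other cluster. Log2 ratios added a pseudocount of 0.1 (bulk: 1), with a floor of 0.5 per 10000 in any cluster (bulk: 5 FPKM). Accessibility ratios added nothing, apart from 0.05 in correlations. Regions overlapping a gene widened by 1000 bp on both sides by 1 bp were joined to it. The plan had upstream flanks only, but the gene table (RefSeq, TAIR10.1, used for names and overlaps) holds no strand. All 23241 genes matched it.

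Named were the 3 markers, the 20 leading genes with the largest ratio, the 5 with the highest level, the 5 genes with the lowest ratio to the mean, list genes highest or 2-fold higher in cluster 4, and the 8 regions with the largest ratio. Other genes were named after their values were seen. The cluster, its markers and the lists were chosen with earlier results of these data known. Python 3.11.15, pandas 2.3.3, NumPy 2.4.6 and Matplotlib 3.10.9 were used, and the rules were tested on simulated data.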

Additional observations from a re-analysis of the deposited data

How the results depend on the processing

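No paired analysis was possible because the tables pool the replicates, which also left no replicate to omit. Pooled averages and unknown depth limit every value to a description. Of all alternatives to the settings used, 83 kept their value (counts within 1.5 times, correlations within 0.1), 18 moved and 0 reversed. The 34 leading genes numbered 24 to 40 with other floors or 0.1 added, and 34 to 46 when 1 other cluster was left out in turn, an alternative chosen after seeing the data. Genes 2-fold higher numbered 549 with a pseudocount of 0.5 and 1708 against the median of the other clusters, and genes 2-fold lower 737 and 1387. With a pseudocount of 0.5 the lower counts were 6 auxin transport, 3 xylem, 0 phloem, 2 stele and 2 cell cycle genes, and against the median 7, 0, 0, 2 and 1, with 0 endodermis genes. The 460 regions numbered 65 at a ratio of 2 and 188 as deposited, and the 3240 regions highest in cluster 4 numbered 1767 as deposited. Counts of higher cell death and autophagy genes stayed at 11 to 13 and 6 to 8. Counting only genes that reached the floor in a cluster other than 4, also chosen after seeing the data, left 902 higher genes.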

Other observations

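Other genes with a high average signal in nucleus cluster 4 were chosen after their values were seen. RD21A (AT1G47128) and RD19 (AT4G39090), papain-type proteases of the vacuole and lytic compartments, were at 33.9 and 30.0 in cluster 4 and at 16.7 and 21.6 in cluster 5, the next. RCD1 (AT1G32230), a nuclear hub of oxidative stress signalling, was at 48.4 against 18.95 in cluster 5, and the metallothionein gene MT1C (AT1G07610) at 41.4 against 28.5 in cluster 2. The thioredoxin gene TRX5 (AT1G45145) was at 29.3 against 20.6 in cluster 1. All 5 were highest in cluster 4, though none reached 4-fold.

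Families were gathered by their symbols, also after seeing values. Their higher and lower counts are relative to the mean of the other clusters alone, which raises the lower counts. Of 48 NAC genes past the floor, 19 were 2-fold higher in cluster 4 and 7 lower, against 7.7% and 27.3% of all genes. NAC041 (AT2G33480) was at 12.7 against 6.63 in cluster 5. Of 43 WRKY genes, 11 were higher and 5 lower, or 9 and 5 of the 41 that reached the floor in another cluster. WRKY26 (AT5G07100) was at 5.88 against 2.37 in cluster 5. Of 26 cytosolic ribosomal protein genes, 0 were higher and 22 lower, and their summed signal was 15.5 in cluster 4, against 8.32 to 114 elsewhere with a median of 28.4. Of 31 UMAMIT genes past the floor, 3 were higher and 16 lower, and UMAMIT8, among those higher, reached the floor through cluster 4 alone.

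Leaving out cluster 5 or cluster 2 added fewer leading genes than leaving out cluster 21. Across all genes past the floor the order differed, with a rho to cluster 4 of 0.68 for cluster 5, 0.59 for cluster 2 and -0.30 for cluster 21. Leaving out cluster 5 added 9 leading genes, among them the homeobox gene HB-12 (AT3G61890), at 7.08 in cluster 4 and 3.77 in cluster 5. Leaving out cluster 2 added 6, among them the jasmonate-inactivating enzyme gene CYP94B3 (AT3G48520), at 1.91 and 1.31, and the poly(ADP-ribose) glycohydrolase gene PARG2 (AT2G31865), at 1.52 and 1.76.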
